A study of Homo sapiens with 4 samples.

Results

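H3K27ac marks the nucleosomes of active promoters and enhancers, and here it was followed at bidirectional promoters, where 2 protein-coding genes start back to back on opposite strands. A member was any H3K27ac peak of chromosomes 1 to 22 within 1000 bp of both start sites of a divergent pair, which was defined from GENCODE genes that do not overlap and whose 5′ ends lie at most 1000 bp apart. The annotation held 861 such pairs. Pairs that share a gene were joined, which left 799 divergent promoters with 1659 of the 19111 protein-coding genes of these chromosomes (8.68%). Of 63699 peaks in control cells 949 were members (1.49%), and of 50119 peaks in *SNHG1*-depletion cells 1059 were members (2.11%). The cells were SK-N-BE(2)C, a *MYCN*-amplified human neuroblastoma line. The control (sgCtrl) carried a non-targeting gRNA and is labelled wildtype, and sgSNHG1 carried gRNAs against the long noncoding RNA gene *SNHG1* and is labelled a knockout. The labels give 1 protocol for all samples, with Cas9, dual sgRNAs, surrogate reporters, puromycin and growth from sorted single cells, and do not say how it differed for the control. A group may be 1 clone. Each group had 2 samples, which the authors combined before they called peaks once per group.

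With 1 pooled list per group there is no spread between replicates, no test was possible, and every interval below is a 95% interval that covers counting error only. The height of a peak is its fold enrichment, the fragments over the summit divided by the local background that the peak caller used. Whether that background came from the same pooled library or from an input library is not given. The depth per sample is unknown. As a check on the labels, 1 sgCtrl peak and 0 sgSNHG1 peaks overlapped *SNHG1*, for which no lower limit follows because the lists hold only called peaks. Start sites of adrenergic neuroblastoma genes had a peak at 6 of 10 in sgCtrl and 7 of 10 in sgSNHG1. Mesenchymal genes had one at 4 of 6 in both lists, epithelial genes at 3 of 4 in both, blood genes at 1 of 5 in both and liver genes at 1 and 0 of 3. Their part in the results was not tested.

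A bidirectional promoter serves both genes from a single nucleosome-depleted stretch, usually within a CpG island, and nucleosomes that carry active marks line each of its sides. RNA polymerase II leaves such a promoter in both directions. Genes arranged in this way include many for DNA repair, replication, metabolism and mitochondria, and their TATA-less, CpG-rich promoters are often bound by factors such as NRF1, GABPA, NF-Y and SP1. Fewer bases separate the starts than 1 nucleosome covers at many of these promoters. The median distance between the starts was 128 bp (quartiles 68.5 and 240, range 1 to 995), and 313 promoters had starts at most 100 bp apart.

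The bases between the start sites of 10 pairs are shown as examples of what lies between the starts, chosen from the promoters named for their height, change or textbook pairing. Each is the plus strand of GRCh38 from the base after the start of the minus-strand gene to the base before the start of the plus-strand gene, so it lies outside both genes. Capitals mark CCAAT (either strand, the NF-Y box) and GGGCGG (either strand, the SP/KLF box), and no other motif that was searched was found in these stretches.

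The first 4 are pairs that share a promoter in textbook accounts.
*PPAT/PAICS*, chr4:56435616-56435740: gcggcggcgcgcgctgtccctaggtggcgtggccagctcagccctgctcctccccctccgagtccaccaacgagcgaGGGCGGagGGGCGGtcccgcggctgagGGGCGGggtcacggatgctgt
*SARS2/MRPS12*, chr19:38930764-38930943: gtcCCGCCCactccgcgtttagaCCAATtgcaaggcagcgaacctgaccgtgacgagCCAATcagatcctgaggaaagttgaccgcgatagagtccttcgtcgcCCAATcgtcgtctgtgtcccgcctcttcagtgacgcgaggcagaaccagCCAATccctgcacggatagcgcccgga
*AURKA/CSTF1*, chr20:56392338-56392370: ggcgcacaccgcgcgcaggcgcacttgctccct
*SIRT3/PSMD13*, chr11:236932-236965: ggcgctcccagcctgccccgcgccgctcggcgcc

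The next 2 are among the highest sgCtrl promoters, with peaks on both sides of the printed bases.
*SETD3/CCNK*, chr14:99480890-99481168: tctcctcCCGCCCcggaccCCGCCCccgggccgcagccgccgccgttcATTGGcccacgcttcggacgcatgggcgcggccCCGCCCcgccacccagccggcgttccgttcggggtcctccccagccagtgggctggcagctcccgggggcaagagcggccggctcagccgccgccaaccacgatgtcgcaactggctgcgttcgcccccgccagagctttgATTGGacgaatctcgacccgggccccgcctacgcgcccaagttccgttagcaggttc
*BBIP1/SHOC2*, chr10:110919202-110919366: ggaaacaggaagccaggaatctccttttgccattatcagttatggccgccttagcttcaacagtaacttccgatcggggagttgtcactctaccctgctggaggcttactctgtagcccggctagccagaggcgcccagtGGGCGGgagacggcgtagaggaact

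The next 3 are promoters with a large rise (*IMMP1L/ELP4*) or fall, and the last had a peak in sgSNHG1 only.
*IMMP1L/ELP4*, chr11:31509646-31509754: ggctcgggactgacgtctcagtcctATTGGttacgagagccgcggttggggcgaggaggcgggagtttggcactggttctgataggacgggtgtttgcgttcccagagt
*SLX4/DNASE1*, chr16:3611607-3611727: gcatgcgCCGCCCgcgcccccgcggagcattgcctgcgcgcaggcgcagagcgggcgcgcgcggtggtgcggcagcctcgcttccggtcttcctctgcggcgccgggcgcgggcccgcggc
*TRMT10A/MTTP*, chr4:99564040-99564080: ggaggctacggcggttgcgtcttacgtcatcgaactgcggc
*CEP290/TMTC3*, chr12:88142100-88142295: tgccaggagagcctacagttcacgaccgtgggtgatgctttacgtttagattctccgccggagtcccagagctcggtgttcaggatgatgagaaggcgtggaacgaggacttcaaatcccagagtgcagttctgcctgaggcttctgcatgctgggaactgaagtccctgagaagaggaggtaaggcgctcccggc

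*SARS2/MRPS12*, which joins a mitochondrial seryl-tRNA synthetase to a mitochondrial ribosomal protein, held 4 CCAAT boxes in 180 bp. *PPAT/PAICS*, a pair of enzymes of de novo purine synthesis, held 3 SP/KLF boxes in 125 bp, of which 76% were G or C. The stretch of *SIRT3/PSMD13* was 34 bp long with 6 CpG and no searched motif.

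Divergent promoters were marked more often than other protein-coding starts. A member peak was present at 670 of 799 in sgCtrl (83.9%, Wilson interval 81.1 to 86.2) and at 700 in sgSNHG1 (87.6%, 85.1 to 89.7). Of 17452 other protein-coding starts 57.2% and 56.3% had a peak within 1000 bp. The 14184 starts without any protein-coding or lncRNA start on the opposite strand within 1000 bp stood at 51.6% and 50.3%. Protein-coding starts with a divergent lncRNA reached 81.4% and 81.7%, and starts whose opposite protein-coding partner overlaps them reached 86.6% and 89.0%, so the high share was shared by other arrangements with an opposite start. Both lists marked 658 divergent promoters, and 87 had no member peak in either list.

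The distance between the starts mattered little up to 500 bp. The share with a sgCtrl peak was 85.9% up to 100 bp, 85.5% from there to 200 bp, 85.2% to 300 bp and 85.0% to 500 bp. It was 64.1% (51.8 to 74.7) for the 64 promoters with starts over 500 bp apart, for which a peak near 1 start can lie too far from the other to be a member. At the edge of the definition, 16 sgCtrl peaks whose farther start lay over 900 and up to 1000 bp away had a median fold enrichment of 4.18, and 29 peaks past 1000 and up to 1100 bp had 4.09. The corresponding sgSNHG1 values were 4.74 for 19 peaks and 3.39 for 25 peaks.

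The sequence of divergent promoters differed from that of other starts. In 300 bp centred between the starts, the median G and C content was 64.7%, against 59.7% from 250 bp before to 50 bp after other starts. The ratio of observed to expected CpG had medians of 0.88 and 0.67. Searched on both strands, GCGCATGCG (the NRF1 core) was found at 6.63% of divergent promoters and 1.96% of other starts, CCGGAAGT (ETS factors such as GABPA) at 14.1% and 4.30%, and AAGATGGCG (YY1) at 3.88% and 1.68%. GGGCGG was found at 71.7% and 50.8%, CCAAT at 40.8% and 35.1%, TGACGTCA (the CRE of CREB and ATF) at 3.88% and 2.13%, and CACGTG (the E-box that MYC and MAX can bind) at 10.5% and 8.03%. TATAAA went the other way, with 5.01% and 11.5%. A match is a description of the letters and not a bound site. Among promoters with a peak in both lists each motif kept its direction, and the contrast was smaller for all but CCAAT (40.6% and 34.7%). There the NRF1 core stood at 7.60% and 3.06%, the ETS motif at 15.8% and 6.91%, and TATAAA at 4.26% and 6.22%.

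CpG content moved with the presence of a peak. Among promoters with an observed-to-expected CpG ratio of 0.8 or more, 90.2% (87.4 to 92.5) of 522 divergent promoters and 82.5% (81.3 to 83.6) of 4392 starts with no opposite start had a sgCtrl peak. The shares in sgSNHG1 were 93.5% and 83.5%. Between 0.6 and 0.8 the sgCtrl shares were 79.9% (73.8 to 84.9) of 199 and 68.7% (66.9 to 70.4) of 2688. Under 0.4 only 10 of 33 divergent promoters had a sgCtrl peak, or 30.3% (17.4 to 47.3), against 19.1% of 5419. Divergent promoters were thus above starts with no opposite start within each of these CpG classes, but under 0.4 the intervals overlapped.

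Member peaks were of ordinary height for promoter peaks. The median fold enrichment was 5.64 in sgCtrl (quartiles 4.15 and 8.11) and 5.78 in sgSNHG1 (4.22 and 8.13), and other promoter peaks had medians of 5.49 and 5.75. The median member had 75 fragments over its summit in sgCtrl and 82 in sgSNHG1. Members were shorter, with median lengths of 486 and 506 bp against 554 and 579 bp.

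The 10 highest divergent promoters of sgCtrl with a peak in both lists ranged from 16.0 to 22.4-fold. *LPXN/ZFP91*, which pairs the focal adhesion protein leupaxin with a zinc finger ubiquitin ligase, was the highest, with 22.4-fold (337 fragments) in sgCtrl and 21.6-fold (402 fragments) in sgSNHG1. Its highest peak lay on the *ZFP91* side at chr11:58579162-58579663 in sgCtrl. *TRMT1L/SWT1*, with starts 8 bp apart, had 20.4 and 20.5-fold, and its peaks lay on the side of the tRNA methyltransferase-like gene *TRMT1L*. *TEX46/KDM1A*, which includes the histone H3 lysine 4 demethylase LSD1, had 19.1 and 19.2-fold. These 3 promoters stood at nearly the same height in both lists. *SETD3/CCNK*, which pairs an actin histidine methyltransferase with cyclin K, had 18.2-fold (241 fragments) and 14.9-fold (242 fragments), so the fragment number was nearly equal while the local background went from 12.3 to 15.3 fragments. Its log2 change relative to all protein-coding promoters was -0.34 (-0.59 to -0.08). *BBIP1/SHOC2*, which encodes a subunit of the ciliary BBSome and a scaffold of RAS-RAF signalling, had 16.6 and 15.1-fold. The other 5 were *LRP2BP/ANKRD37* with 19.9 and 15.7-fold, *DEPDC4/SCYL2* with 18.4 and 16.8-fold, *RSF1/AAMDC* with 16.4 and 15.6-fold, *TMEM60/PHTF2* with 16.4 and 15.0-fold and *CEP170/SDCCAG8*, a pair of centrosomal proteins, with 16.0 and 15.5-fold.

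The mark lay mostly beside the starts. At the midpoint 9.14% of divergent promoters were covered by a sgCtrl peak, and coverage was highest 380 bp to either side, with 51.7% on the side of the minus-strand gene and 47.7% on the side of the plus-strand gene. In sgSNHG1 the midpoint stood at 13.1%, and the crests stood at 58.7% (340 bp on the minus-gene side) and 57.2% (380 bp on the plus-gene side). Starts with no opposite start had a single crest 320 bp into the gene in sgCtrl (37.6%) and 300 bp in sgSNHG1 (38.2%). Upstream of those starts coverage stayed at or below 10.5% and 10.7%. Starts with a divergent lncRNA did have an upstream crest, 22.8% at 460 bp in sgCtrl and 29.5% at 400 bp in sgSNHG1. Their crest 280 bp into the gene stood at 70.3% and 72.2%. Of all bases between the starts of marked divergent promoters, summed over promoters, 14.3% lay under sgCtrl peaks and 17.7% under sgSNHG1 peaks. Promoters with starts over 500 bp apart differed, with 34.1% and 38.4% of these bases covered. The summit of the highest member peak lay between the starts in 2.09% of marked divergent promoters in sgCtrl and 3.14% in sgSNHG1.

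Acetylation on both sides was more frequent in sgSNHG1. A flank, the 1000 bp inside a gene from its start, was counted as covered when at least 100 bp lay under peaks. Of the marked divergent promoters both flanks were covered in 304 of 670 in sgCtrl (45.4%, 41.6 to 49.2) and in 403 of 700 in sgSNHG1 (57.6%, 53.9 to 61.2). Of starts with no opposite start, 26.2% and 30.6% were covered on both sides. Starts with a divergent lncRNA went from 39.6% to 49.3% and overlapping pairs from 43.6% to 52.4%. The share was therefore higher in sgSNHG1 in each of these 4 arrangements. A single peak spanned both starts in 7.91% of marked divergent promoters in sgCtrl and 11.4% in sgSNHG1. More than 1 member peak was found in 263 of 670 and 338 of 700.

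Of 658 divergent promoters marked in both lists, 109 went from 1 covered flank in sgCtrl to both in sgSNHG1 (16.6%, 13.9 to 19.6) and 14 went from both to 1 (2.13%, 1.27 to 3.54). Among starts with no opposite start, whose flanks lie inside the gene and upstream, the same changes were seen in 9.07% and 4.47% of 6623. The 109 promoters had median heights of 6.28-fold in sgCtrl and 6.57-fold in sgSNHG1, with medians of 70 and 85 fragments. They were slightly lower than the 286 promoters covered on both flanks in both lists, whose medians were 7.04 and 7.48-fold with 102 and 125 fragments. *NPAT/ATM*, which pairs the histone gene coactivator NPAT with the DNA damage kinase ATM, was one of the 109. Its *NPAT* flank had 644 covered bp in sgCtrl and 673 in sgSNHG1, and its *ATM* flank had 0 and 267. *CEP170/SDCCAG8* gained 239 covered bp on the *SDCCAG8* flank, which had 0 in sgCtrl.

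Which side carried the mark was mostly the same in the 2 lists. The flank with more covered bases was the same in 599 of 656 promoters (91.3%, 88.9 to 93.2), and of 247 promoters with 1 covered flank in each list 245 had the same flank. The highest summit lay on the same side in 582 of 636 promoters in which it lay outside the starts in both lists. Across divergent promoters there was little preference for a strand, with the highest summit on the minus-gene side in 349 and on the plus-gene side in 307 of 670 in sgCtrl. *SARS2/MRPS12* was covered only on the *MRPS12* side in both lists (327 and 496 bp).

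The number of member peaks was higher in sgSNHG1 while the list as a whole was smaller. The ratio of member peaks was 1.12 (1.02 to 1.22), that of other promoter peaks 1.01 (0.988 to 1.04), and that of peaks farther from protein-coding starts 0.727 (0.718 to 0.737). Of sgCtrl members 918 of 949 overlapped a sgSNHG1 peak (96.7%, 95.4 to 97.7), more than the 89.6% of other promoter peaks. Of sgSNHG1 members 895 of 1059 overlapped a sgCtrl peak (84.5%, 82.2 to 86.6), less than the 87.7% of other promoter peaks. Of the 164 sgSNHG1 members without a sgCtrl peak, 118 lay at promoters that had another sgCtrl member, and the summits of 102 of these lay on a flank that sgCtrl did not cover. They were low and short, with medians of 3.86-fold and 274.5 bp, against 6.31-fold and 557 bp for members that were shared. When peaks closer than 1000 bp were merged the ratio was 1.05 (0.943 to 1.16) for members and 0.977 for other promoter peaks. The excess of member peaks was thus smaller when neighbouring peaks were counted as 1, but the ratio of members was still the higher. The interval for members includes 1, but it treats the counts of both lists as independent. Of merged members 97.9% (sgCtrl) and 94.5% (sgSNHG1) were shared, so the interval cannot show whether the excess was lost.

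Few divergent promoters had a member peak in 1 list only. Of 712 with a peak in either list, 12 had it in sgCtrl only (1.69%, 0.967 to 2.92) and 42 in sgSNHG1 only (5.90%, 4.39 to 7.88). Among all protein-coding promoters with a peak these shares were 7.02% and 5.94%. The share in sgSNHG1 only was thus at the background, and the share in sgCtrl only was below it. Fold enrichment was low in both, with medians of 3.31 for the 12 and 4.17 for the 42. In the other list the nearest peak lay within 2000 bp of both starts at 2 of the 12 and 11 of the 42.

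Of the 5 highest in sgSNHG1 only, 4 had peaks on both flanks. *CIR1/SCRN3*, which includes a corepressor of Notch targets, had 7.15-fold with 43 fragments, and the nearest sgCtrl peak lay 52857 bp from its farther start. *CEP290/TMTC3*, which includes a ciliary transition zone protein, had 7.07-fold with 39 fragments at chr12:88142395-88142779, and the nearest sgCtrl peak was 106189 bp away. *C12orf4/RAD51AP1*, which includes a DNA repair gene, also had 7.07-fold with 39 fragments. *MRPL47/NDUFB5*, which pairs a mitochondrial ribosomal protein with a subunit of respiratory complex I, had 6.88-fold with 92 fragments, and the nearest sgCtrl peak was 41078 bp away. *LANCL1/CPS1* had 6.89-fold with 38 fragments, but a sgCtrl peak lay 1044 bp from its farther start, just outside the limit.

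The 5 highest in sgCtrl only were lower. *PPP1R13L/POLR1G*, with a p53 inhibitor and a subunit of RNA polymerase I, had 4.98-fold and 44 fragments. *KCTD19/LRRC36* had 4.41-fold and 25 fragments, and *INCA1/KIF1C*, which includes a kinesin, had 4.38-fold and 35 fragments. *COL4A4/COL4A3*, the collagen IV pair of kidney and other basement membranes, had 4.07-fold and 23 fragments. *RHBDF1/MPG* had 3.80-fold and 128 fragments, and there a sgSNHG1 peak of 4.51-fold lay 1156 bp from the farther start. At the other 4 the nearest sgSNHG1 peak lay 9893 bp or more from the farther start.

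The height at divergent promoters was nearly unchanged. Change was measured as the log2 ratio of the highest member peak in sgSNHG1 to that in sgCtrl, less the median of this ratio over 9850 protein-coding promoters with a peak in both lists, which was 0.05. Over 658 divergent promoters the median change was 0.05 (0.03 to 0.07), or 3.35% higher, with quartiles of -0.10 and 0.19. The median of 9192 other starts was -0.00 (-0.01 to 0.00). Divergent promoters were higher in 387 of 658 (58.8%), other starts in 49.4%. Of those other starts, the 801 whose opposite protein-coding partner overlaps them had a median of 0.03 (0.01 to 0.06), and 55.4% were higher. Their interval overlapped that of divergent promoters. The heights of the 2 lists went together across the 658 promoters (Pearson's r = 0.919 on the log2 scale and Spearman's rho = 0.913, as a description across promoters that share 2 pooled libraries). A rise of at least 1.5 times was seen at 15 (2.28%), where 1.61% of all protein-coding promoters rose as much, and a fall of at least 1.5 times at 9 (1.37%), where 1.48% of all fell as much. Both shares were near the background. The counting interval lay above 0 for 11 of the 15 and below 0 for 6 of the 9. At other starts it did so for 129 of 144 rises and 114 of 137 falls. These promoters were picked by the same change, so the counts are a description.

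The shift differed with height. At a geometric mean height under 4-fold the median change of 59 divergent promoters was 0.14 (0.07 to 0.20), against 0.01 (-0.01 to 0.02) for other starts. Between 4 and 6-fold it was 0.10 (0.06 to 0.15) over 184, against 0.02. Between 6 and 9-fold it was 0.05 (0.02 to 0.10) over 226, against 0.03. At 9-fold and over it was -0.05 (-0.08 to -0.01) over 189, against -0.05 (-0.06 to -0.04) for other starts. Divergent promoters stood above other starts of the same height class in the 2 lower classes, where the intervals did not overlap. Divergent and other promoters were sorted into the same classes, but the heights within a class were not matched further. The other starts were not split by arrangement in these classes.

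**Figure D1:**
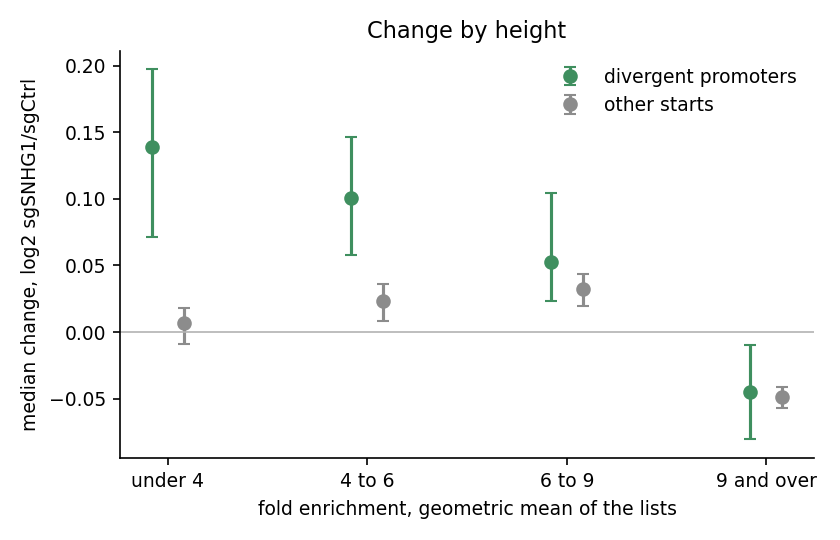
Median change on the log2 scale (sgSNHG1 over sgCtrl, less the median of all protein-coding promoters) in 4 classes of fold enrichment, for divergent promoters (green) and other starts (grey), with 95% intervals of the median. Divergent promoters lie at 0.14 and 0.10 in the 2 lower classes, above other starts at 0.01 and 0.02, and both kinds lie at -0.05 at 9-fold and over.

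The change hardly varied with the distance between the starts, with medians of 0.06, 0.05, 0.03, 0.04 and 0.04 from the shortest to the longest of the 5 classes. With and without a motif the median changes were as follows, as a description. The 104 promoters with the ETS motif had a median change of 0.01 and the 554 without it 0.05, the 50 with the NRF1 core 0.04 and the others 0.05, and the 72 with the E-box 0.04 and the others 0.05. The 27 promoters with the YY1 motif had 0.12, against 0.04 for the 631 without it, and the 28 with the CRE had 0.08, against 0.05 for the 630 without it. The 28 with TATAAA had 0.001, against 0.05 for the 630 without it. The 267 with CCAAT had 0.04 and the others 0.05, and the 492 with GGGCGG had 0.05 and the others 0.04.

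The 5 largest rises started between 2.03 and 4.92-fold in sgCtrl, which is also the denominator of the change they were chosen by. *IMMP1L/ELP4*, which pairs a mitochondrial inner membrane peptidase with a subunit of Elongator, went from 4.41-fold (25 fragments) to 9.54-fold (53 fragments), a change of 1.06 (0.38 to 1.75). The peak lay on the *ELP4* side at chr11:31509931-31510163 in sgCtrl and chr11:31509861-31510245 in sgSNHG1. *NMRK1/OSTF1*, which includes nicotinamide riboside kinase, went from 4.24-fold (24 fragments) to 8.45-fold (61 fragments), a change of 0.94 (0.26 to 1.62). Its sgCtrl peak lay on the *NMRK1* side. In sgSNHG1 both flanks were covered and the highest peak lay on the *OSTF1* side, so different peaks were compared. *TEX14/RAD51C*, which includes a gene of homologous recombination, went from 3.80 to 7.03-fold with 40 and 80 fragments. *HIGD1A/ACKR2*, which includes an atypical chemokine receptor, went from 4.92-fold (28 fragments) to 9.00-fold (52 fragments). *POLR2L/TSPAN4*, which includes a small subunit common to the RNA polymerases, had the lowest fold enrichment of the 5, 2.03 and 3.62, with 82 and 115 fragments. Its local background was 39.9 and 31.0 fragments. The summit of its highest peak lay on the *TSPAN4* side in sgCtrl and between the starts in sgSNHG1.

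The 5 largest falls started between 4.65 and 12.4-fold in sgCtrl. *TRMT10A/MTTP*, which pairs a tRNA methyltransferase with the lipoprotein assembly factor MTTP, went from 9.63-fold (57 fragments) to 6.01-fold (33 fragments), a change of -0.73 (-1.35 to -0.11). *PURG/WRN*, which includes the Werner syndrome helicase, went from 12.4-fold (111 fragments) to 8.18-fold (78 fragments), a change of -0.65 (-1.07 to -0.24). *SLX4/DNASE1*, which includes the scaffold of structure-specific nucleases SLX4, went from 8.75-fold (97 fragments) to 5.86-fold (60 fragments). *IRGQ/ZNF576* went from 4.65 to 3.08-fold with 78 and 48 fragments, but different peaks were compared. Its highest peak lay on the *IRGQ* side in sgCtrl and on the *ZNF576* side in sgSNHG1, where both flanks were covered. *HELQ/MRPS18C*, which pairs a DNA repair helicase with a mitochondrial ribosomal protein, went from 7.64 to 5.13-fold with 49 and 28 fragments, and its interval (-1.30 to 0.04) included 0.

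*TRMT10A/MTTP*, *HELQ/MRPS18C* and *LRP2BP/ANKRD37*, the tall promoter with the largest drop, lie on chromosome 4 beyond 52 Mb. The 16 divergent promoters there had a median change of -0.31, and 180 other starts had -0.21. Their fragment numbers were 0.638 times those of sgCtrl in the median and were lower at 14 of 16, while over all 658 promoters the median ratio was 1.16. The local background there was 0.798 times, against 1.07 times over all. Up to 52 Mb the median of 11 divergent promoters was -0.04. Without chromosomes 4 and 9 the median change over 597 divergent promoters was 0.05, with 14 rises and 7 falls. Chromosome 19 went the other way, with 31 of 36 divergent promoters higher and a median of 0.15 (0.09 to 0.28), against 0.07 for its other starts. Its median heights were 4.71 and 5.43-fold, and the part of height was not tested. Chromosome 9 had 26 of 34 higher and a median of 0.10 (0.03 to 0.18). Chromosomes 13 and 18 had medians of 0.16 over 12 promoters and 0.26 over 5. Chromosomes 8, 10, 14 and 20 had medians below 0.

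Textbook pairs were mostly marked and changed little. Of 22 pairs written down from general knowledge 9 met the definition, and the other 13 overlap, start farther apart or are not head to head in the annotation. Of these 9, *COL4A4/COL4A3* is described above. *PRKDC/MCM4*, with the DNA-PK catalytic subunit and a subunit of the replicative helicase and starts 7 bp apart, was the highest, with 11.0-fold (291 fragments) and 11.8-fold (386 fragments). *NPAT/ATM* had 7.12 and 7.10-fold. *SIRT3/PSMD13*, with a mitochondrial deacetylase and a proteasome subunit, had 6.72 and 8.20-fold, and in sgSNHG1 a single peak of 1027 bp spanned its printed 34 bp. *PPAT/PAICS* had 5.65 and 5.97-fold, with both flanks covered in both lists, and its SP/KLF boxes lay between the covered flanks. *TMEM258/FEN1*, with the flap endonuclease of replication, had 4.39 and 5.35-fold. *SARS2/MRPS12* had 4.18 and 4.73-fold, and *AURKA/CSTF1*, with a mitotic kinase and a 3′ end processing factor, had 4.10 and 4.62-fold. The counting interval of the change included 0 for each of the 8 pairs with a peak in both lists.

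Genes of some functions stood in divergent pairs more often than the 8.68% of all protein-coding genes. Replication-dependent histone genes led, with 27 of 69 (39.1%) in 13 promoters, most of which pair an H2A with an H2B gene. Replication and licensing genes followed with 15 of 48 (31.3%) and DNA repair genes with 24 of 85 (28.2%). Subunits of RNA polymerases stood at 26.5%, the respiratory chain and ATP synthase at 23.6%, the mitochondrial ribosome at 21.8%, chaperones at 19.8%, splicing factors at 17.9%, mitochondrial import at 16.7%, the cytosolic ribosome at 13.0%, the proteasome at 10.6% and tRNA synthetases at 8.82%. Zinc finger genes (6.04%), collagens (4.76%) and solute carriers (3.34%) were below the share of all genes, and none of 103 homeobox genes was in a divergent pair. These shares come from the annotation and not from the peaks.

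Among the histone promoters 11 of 13 had a member peak in either list, and 6 of the 11 were higher in sgSNHG1 (median change 0.02). All divergent promoters were marked at 83.9% and 87.6%, and histone genes outside divergent pairs at 73.8% and 76.2%. *H2BC12/H2AC12* was the highest of them, with 8.65 and 9.93-fold. Of 15 replication promoters 14 were marked in both lists, with medians of 9.23 and 9.07-fold and a median change of 0.01. Replication genes outside divergent pairs were marked at 84.8% in each list. *LIPT2/POLD3*, with a DNA polymerase delta subunit, had 13.2 and 16.0-fold, and *PCNA/CDS2*, with the sliding clamp, had 12.1 and 10.9-fold.

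DNA repair promoters had a median change of 0.15 with 16 of 21 higher, where all divergent promoters had 0.05 with 58.8% higher, and DNA repair genes outside divergent pairs had a median of 0.00. They included *XPC/LSM3* with 11.9 and 12.3-fold, *RECQL/GOLT1B*, with a RecQ helicase, with 9.50 and 10.9-fold and the promoters *TEX14/RAD51C* and *PURG/WRN* described above. Their median heights were 5.79-fold in sgCtrl and 6.65-fold in sgSNHG1, and the median changes of all divergent promoters were 0.10 between 4 and 6-fold and 0.05 between 6 and 9-fold. The part of height in the value of the list was not tested. Replication genes went the other way, with a median of 0.16 outside divergent pairs against 0.01 within them.

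Mitochondrial genes were marked at 21 of 25 respiratory chain promoters in each list, at 13 and 15 of 16 mitochondrial ribosome promoters and at 4 of 5 import promoters. All divergent promoters stood at 83.9% and 87.6%. Genes of these lists outside divergent pairs stood, in the same order, at 80.2% and 82.7%, 82.0% and 86.9%, and 100% and 96%. *WDR4/NDUFV3*, with a complex I subunit, had 12.5 and 14.1-fold, *NDUFA8/MORN5*, with another complex I subunit, had 11.2 and 14.7-fold, *CCDC127/SDHA*, with the catalytic subunit of succinate dehydrogenase, had 10.5 and 12.6-fold, and *TCP1/MRPL18* had 12.8 and 11.5-fold. The median changes were 0.05 for the respiratory chain and 0.03 for the mitochondrial ribosome. All 10 cytosolic ribosome promoters were marked in both lists, with 9.82 and 8.92-fold at *RPL9/LIAS* and 9.72 and 10.7-fold at *RPL35/ARPC5L*. Cytosolic ribosome genes outside divergent pairs were marked at 92.5% and 94.0%. *TOMM70/LNP1*, with a receptor of the mitochondrial outer membrane, was the highest import promoter, with 11.2 and 9.34-fold.

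Of the 5 proteasome promoters 4 were marked in both lists, and *PSMA1/PDE3B* was the highest with 12.2 and 10.5-fold. *PSMA2/MRPL32*, which pairs a core proteasome subunit with a mitochondrial ribosomal protein and was chosen after its values were seen, went from 4.50-fold (26 fragments) to 7.12-fold (51 fragments). Chaperone promoters were marked at 14 and 15 of 16, with a median change of -0.02 and with 15.7 and 14.1-fold at *THAP5/DNAJB9* and 15.5 and 13.7-fold at *PSPH/CCT6A*, a subunit of the TRiC chaperonin. All 15 splicing promoters were marked in both lists with a median change of -0.01. *HNRNPDL/ENOPH1*, with an RNA-binding protein, was the highest, with 15.3-fold (372 fragments) and 14.4-fold (226 fragments), a change of -0.13. Of 9 RNA polymerase promoters 6 were marked in each list and 5 in both, with a median change of 0.09. The 3 tRNA synthetase promoters were marked in both lists with a median change of 0.04. Outside divergent pairs proteasome genes were marked at 83.3% and 85.7%, chaperones at 73.9% and 78.3% and splicing factors at 82.6% and 81.2%. RNA polymerase genes there stood at 84% and tRNA synthetases at 87.1% in each list.

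Zinc finger promoters were marked at 19 of 26 in sgCtrl and 24 of 26 in sgSNHG1. All divergent promoters stood at 83.9% and 87.6%, and zinc finger genes outside divergent pairs at 66.4% and 69.0%. Over the 19 marked in both lists the median change was 0.04, with 10 higher. *UIMC1/ZNF346* was the highest zinc finger promoter, with 13.5 and 12.8-fold. Solute carrier promoters were marked at 9 of 12 in both lists with a median change of 0.04, and *MYEF2/SLC12A1* was the highest with 15.5 and 16.1-fold. Solute carrier genes outside divergent pairs were marked at 52.2% and 47.3%.

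Of the 87 divergent promoters without a member peak in either list, 44 had a sgCtrl peak within 1000 bp of some annotated transcript start of one of their genes and 41 a sgSNHG1 peak. Their CpG ratio had a median of 0.72, against 0.91 for promoters with a peak in both lists, and TATAAA was found at 10.3% and 4.26%.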

How the data were processed

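H3K27ac was profiled by ChIP-seq in 2 sgCtrl and 2 sgSNHG1 samples of the SK-N-BE(2)C line. Per the study's methods the authors removed adaptors (cutadapt), mapped the reads to GRCh38 (BWA), pooled the replicates by group and ran MACS2 once on each pool (p threshold 1e-06, duplicates kept). Tool versions and an input library are not given in the sources used here. In the deposited lists the authors give each peak's fold enrichment over a local background and its -log10 p, which grows with depth. Keeping duplicates can raise both values.

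Start sites came from GENCODE release 44. The fragments over each summit were solved from the fold enrichment (1 is added to fragments and to background) and the -log10 p, and came within 0.01 of a whole number for 99.9% of peaks. This step, and the classes of overlapping and lncRNA starts, were added after the data were seen. Intervals cover counting error only (95%; Wilson for shares, Poisson counts for changes, order statistics for medians), since each group is 1 pooled list and the counted reads are not independent molecules. Named promoters were the 10 highest in sgCtrl, the 5 largest rises and falls, the 5 highest in 1 list only, textbook pairs (1 of which is not reported here) and list members. Members and lists were chosen with earlier results of these data known. Python 3.11.15, pandas 2.3.3, SciPy 1.17.1 and pysam 0.24.0 were used, and the counting steps were tested on simulated data.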

Additional observations from a re-analysis of the deposited data

How the results depend on the processing

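No paired analysis was possible because the authors pooled both replicates of each group before calling peaks, and for the same reason leaving out a replicate could not be run. Values that differed from the reported ones by more than the counting interval, or by more than 1.5 times for a count, are given here. Several alternatives cannot move a given value by construction, such as other starts for the divergent promoters. With lists of equal size the ratio for other promoter peaks was 1.11 (1.08 to 1.14). That of member peaks, given for comparison, was 1.17 (1.07 to 1.28), and the intervals overlapped. In the same setting the shares of shared members were 97.8% (sgCtrl) and 81.6% (sgSNHG1), and 7 promoters had a peak in sgCtrl only. With peaks within 500 bp of both starts the shares of marked promoters were 75.7% and 80.7%, the median heights 5.89 and 6.07-fold, the shared sgCtrl members 98.1% and the promoters in sgCtrl only 7. Merging peaks within 1000 bp gave 0.977 for other promoter peaks, 6.62 and 7.08-fold, and 97.9% and 94.5% shared. All transcript starts gave 0.907 for other promoter peaks. Sharing by 50% of both peaks gave 85.6% and 77.0%, and within 1000 bp 98.4% and 95.8%. The median change was 0.10 without centring, 0.51 points as a percentile of the list and 0.070 from covered bases. At 2 times 1 promoter rose and 0 fell, and without centring 3 fell. The causes were not tested. The ratio of member peaks was 1.05 (0.943 to 1.16) after merging. Pooled lists hide the spread between samples, and the depth per sample, which limits low peaks, is unknown.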
